A study of Mus musculus with 8 samples.

Results

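The genes described here are 88 mouse zinc finger protein genes with symbols from Zfp600 to Zfp999, measured in the chromatin and nucleoplasm of HL1 cells. A member is an assembled locus whose best same-strand partner among protein-coding genes of the GENCODE M21 annotation (mouse build mm10) carries such a symbol, where the span shared by locus and gene is at least 0.5 of the span they cover together (the Jaccard index). The annotation holds 171 genes with these symbols, and the expression table holds 65265 rows, of which 20637 are assembled loci and 11137 are protein-coding assembled loci. All 88 members had reads and entered the test.

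HL1 is an immortal line of mouse atrial cardiomyocytes grown in culture, and every library came from untreated cells of this line. Nuclei were extracted with urea and detergent, which left a soluble nucleoplasm and a chromatin pellet, and RNA standards of the External RNA Controls Consortium (ERCC) were added to each fraction. Short stranded reads were taken from 3 chromatin and 3 nucleoplasm libraries, numbered 1 to 3 in each fraction, after ribosomal RNA was depleted. Long reads came from 2 further chromatin libraries. Each library is a bulk fraction of 1 cell line, so more RNA per nucleus and a larger share of nuclei holding that RNA cannot be told apart. The comparison of the fractions asks which transcripts are enriched in the chromatin pellet, a fraction that also carries RNA still in the course of transcription.

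Most of these proteins carry arrays of C2H2 zinc fingers, short folds that each hold a zinc ion and together read a stretch of DNA. Many also begin with a Krüppel-associated box (KRAB), which recruits the corepressor Trim28 and, through it, the histone methyltransferase Setdb1 to silence endogenous retroviruses and other repeats. The genes have multiplied by local duplication in rodents, so that many lie side by side in chromosomal clusters of near copies.

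The short-read libraries held from 91657034 to 121773350 reads on the table's rows, recovered from the normalized counts. These are whole counts estimated by StringTie and are called reads here. The 20 most abundant rows took 22.4 to 25.2% of the chromatin counts and 28.5 to 43.6% of the nucleoplasm counts. The labels give chromatin as the fraction of the nucleoplasm libraries too, so the titles were used. The 5 control genes followed the titles in all 6 libraries: the nuclear RNAs Malat1, Neat1 and Pvt1 were higher in every chromatin library, and the mRNAs of Gapdh and B2m were lower. Of 12 atrial cardiomyocyte markers, 8 had means of at least 100 normalized counts in both fractions and 2, Myh6 and Tnnt2, had no row matched to them. The leukocyte markers had means of at most 88.5, with up to 150 in a single library for Cd68. The atrial markers Nppa (chromatin mean 20.7 and nucleoplasm mean 76.6) and Sln (57.9 and 279) were low. Of 6 fibroblast markers, 4 had means of at least 100 in both fractions, with up to 257260 for Col1a1, while Tcf21 was at 0 and Postn had means of 0 and 54.9. Of 3 smooth muscle markers, Acta2 and Myh11 had at least 100 in both fractions and Cnn1 had 56.6 and 231, and of 4 endothelial markers Kdr (1258 and 2187) and Tek did.

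A cluster of members on chromosome 2 and a pair from a cluster on chromosome 17 are printed as examples of promoters within a cluster. The promoters of other members were not aligned, so these examples do not show how alike neighbours are in general. The sequences below are the 250 bases before the annotated start in RefSeq (GRCm38.p6), each written 5′ to 3′ along the gene's own strand. Zfp970 (chr2:177464492-177464741, plus strand), Zfp972 (chr2:177925651-177925900, minus strand) and Zfp971 (chr2:178023034-178023283, plus strand) are shown with each CCAAT, the letters of the CCAAT box that the factor NF-Y binds, or its reverse complement ATTGG, in capitals.
Zfp970: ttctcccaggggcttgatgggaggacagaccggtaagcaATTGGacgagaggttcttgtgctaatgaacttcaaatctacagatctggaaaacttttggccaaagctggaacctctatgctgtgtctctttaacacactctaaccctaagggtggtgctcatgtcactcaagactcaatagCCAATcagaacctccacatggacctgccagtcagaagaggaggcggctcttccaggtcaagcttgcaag
Zfp972: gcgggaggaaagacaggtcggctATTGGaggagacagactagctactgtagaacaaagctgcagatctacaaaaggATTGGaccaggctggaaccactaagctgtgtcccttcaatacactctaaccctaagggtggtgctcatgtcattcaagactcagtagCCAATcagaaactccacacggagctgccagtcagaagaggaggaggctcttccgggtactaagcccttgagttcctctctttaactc
Zfp971: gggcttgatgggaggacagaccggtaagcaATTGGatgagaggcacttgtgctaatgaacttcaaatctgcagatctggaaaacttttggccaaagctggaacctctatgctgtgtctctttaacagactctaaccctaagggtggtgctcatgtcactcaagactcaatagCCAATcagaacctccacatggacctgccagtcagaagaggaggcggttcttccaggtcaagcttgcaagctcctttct
Aligned end to end, the stretches of Zfp970 and Zfp971 were identical at 235 of 250 bases, and Zfp972 shared 193 bases with Zfp970 and 199 with Zfp971. The CCAAT that lies on the gene's own strand began 69 bases before the start of Zfp970, 78 before that of Zfp971 and 87 before that of Zfp972. Zfp942 (chr17:21962465-21962714, minus strand) and Zfp944 (chr17:22361401-22361650, minus strand) are shown with CACGTG, the E box bound by factors such as Usf1, in capitals.
Zfp942: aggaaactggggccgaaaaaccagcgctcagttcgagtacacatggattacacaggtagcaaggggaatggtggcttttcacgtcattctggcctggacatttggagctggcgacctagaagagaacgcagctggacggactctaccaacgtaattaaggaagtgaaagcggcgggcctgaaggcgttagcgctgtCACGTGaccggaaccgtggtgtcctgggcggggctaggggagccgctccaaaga
Zfp944: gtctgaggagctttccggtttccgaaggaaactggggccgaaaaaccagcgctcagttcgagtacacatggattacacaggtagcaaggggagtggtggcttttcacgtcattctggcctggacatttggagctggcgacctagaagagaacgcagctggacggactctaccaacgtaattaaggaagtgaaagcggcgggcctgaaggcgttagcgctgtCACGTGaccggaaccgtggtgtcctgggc
These 2 stretches were identical at 224 of 250 bases once aligned. The E box began 54 bases before the start of Zfp942 and 29 before that of Zfp944.

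RefSeq promoters running from 250 bases before to 50 after the start were matched to 75 of the 88 members and to 8577 other protein-coding loci. In 64 of the 75 the RefSeq start lay within 500 bases of the start of the assembled locus. In the other 11 it lay farther, by up to 47253 bases in Zfp638, 36181 in Zfp652 and 12920 in Zfp981, so their window may not be the promoter of the measured locus. CCAAT, on either strand, was in 40 of the 75 member promoters (53.3%), in 39.3% of the promoters of other coding loci and in 37.4% of all 32851 RefSeq promoters. E boxes (CACGTG) were in 10 member promoters (13.3%) against 10.3% of the other coding loci and 7.15% of all promoters. The GC box GGGCGG, bound by Sp1, was in 38 member promoters (50.7%), in 66.0% of the other coding loci and in 35.7% of all promoters. The TATA box TATAAA was in 3 member promoters (4%), in 6.9% of the other coding loci and in 13.6% of all promoters. The median number of CG dinucleotides was 14 in the members and 21 in the other coding loci, and it was 3 or 4 in the chromosome 2 promoters printed above. A match to letters is a description of the window and not a bound site.

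In HL1 nuclei the members leaned towards chromatin. Summed over the 88 members, the chromatin libraries held 288664, 267726 and 281314 normalized counts and the nucleoplasm libraries 140649, 133488 and 133350. The fractions did not overlap, and the chromatin mean was 2.06 times the nucleoplasm mean. These sums were 0.274 to 0.295% of all chromatin counts and 0.115 to 0.151% of all nucleoplasm counts.

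In the limma fit over all 35830 rows, on log2(normalized count + 1), 54 members were higher in chromatin at an adjusted p under 0.05, 10 were lower and 24 did not pass. Over all rows 26.9% were higher and 20.9% were lower. A change of more than 4 fold towards chromatin was called for 11 members, beside 15.7% of all rows, and the same change towards nucleoplasm for 0 members, beside 4.9% of all rows. Every chromatin library lay above every nucleoplasm library for 58 members, against 31.5% of all rows, and below for 11 members, against 23.8%. The members' median log2 fold change was 0.83, with quartiles of 0.13 and 1.52, where the median of all rows was 0.38. When the libraries were scaled to the ERCC standards instead, the median of all rows moved up by 0.46 and the counts became 71 members higher (80.7%) and 2 lower, beside 34.8% of all rows higher and 8.67% lower.

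With the libraries as normalized by the authors, protein-coding genes as a whole lay on the other side. Of 10869 coding loci tested that are no members, 25.2% were higher in chromatin, 43.6% were lower, and the median log2 fold change was -0.33. The zinc finger genes Zfp1 to Zfp599 lay between: of 118 loci, 55 were higher (46.6%), 20 were lower and 4 were more than 4 fold higher, with a median of 0.29. Their median span was 19264 bases, close to the 17177 bases of the members. The order of these 3 groups can be read from the cumulative curves.

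**Figure D1:**
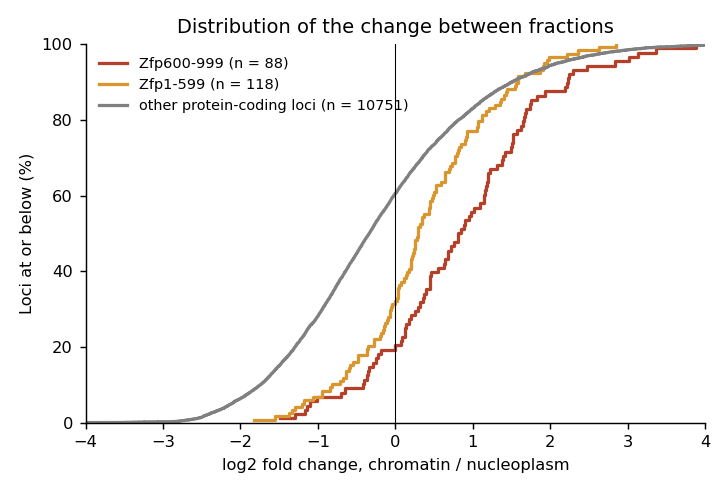
Cumulative share of loci (y axis, percent) at or below each log2 fold change between chromatin and nucleoplasm (x axis) for the 88 Zfp600 to Zfp999 loci, 118 Zfp1 to Zfp599 loci and 10751 other protein-coding loci. The curve of the members lies to the right of both others over most of its length, with medians of 0.83 for the members and 0.29 for Zfp1 to Zfp599. The x axis is cut at -4 and 4.

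Long loci were more often higher in chromatin than short ones, so each member was set beside the coding loci of 0.5 to 2 times its own span, from 1048 to 4579 loci a member. The medians of these sets had a median log2 fold change of -0.54, and 80 of the 88 members lay above the median of their own set. On average 20.5% of the loci in a set were higher in chromatin and 49.4% lower, beside 61.4% and 11.4% of the members. The 8 members below their set's median were Zfp637, Zfp652, Zfp664, Zfp689, Zfp706, Zfp710, Zfp750 and Zfp984. Where the sets were also held to 0.5 to 2 times the member's mean count, their median was -0.64 and 81 members lay above it. Under ERCC scaling the median of the span sets turned to 0.17, and the members' median was 1.56.

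**Figure D2:**
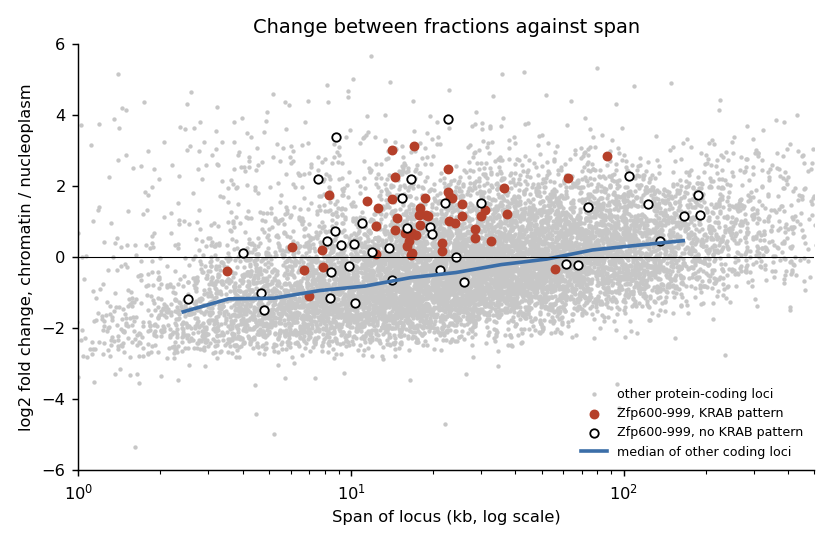
Log2 fold change between chromatin and nucleoplasm (y axis) against the span of the locus in kb (x axis, log scale, drawn from 1 to 500 kb) for the other protein-coding loci (grey) and the members with (red) and without (open) the KRAB letter pattern. The blue line is the median of the other coding loci in steps of span; 80 of the 88 members lie above the median of loci of similar span.

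By span, the difference was largest in the middle classes. Among the 34 members of 10 to 20 kb, 23 were higher in chromatin (67.6%) and 2 lower, while 15.6% of 2058 other coding loci of that span were higher and 55.6% lower. Among the 23 members of 20 to 50 kb, 18 were higher and 1 lower, and the other coding loci had 24.97% higher and 41.3% lower. The 19 members under 10 kb were split, with 5 higher and 7 lower and a median log2 fold change of -0.25, where the other coding loci had 9.48% higher, 68.0% lower and a median of -1.19. Of the 12 members of 50 kb or more, 8 were higher (66.7%) and 0 lower, where the other coding loci had 43.2% higher and 20.2% lower. Across the 88 members the rank correlation between log2 fold change and span was 0.39, and across the other coding loci it was 0.45. Members are not independent of each other, and these correlations are descriptions.

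**Figure D3:**
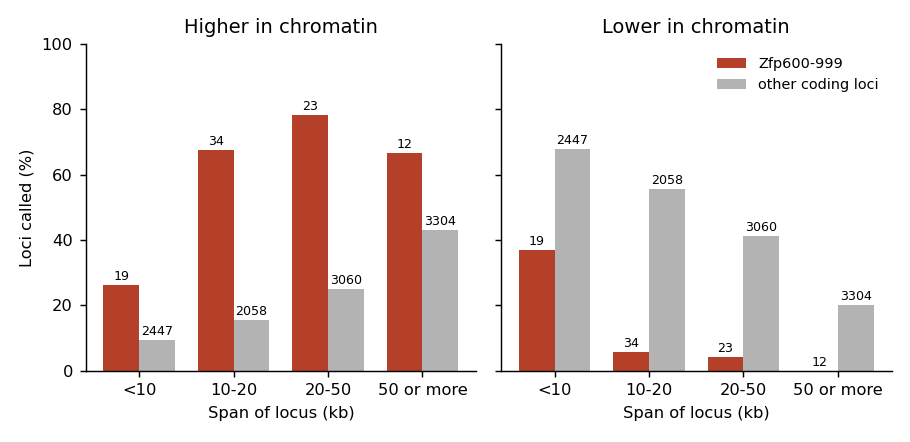
Share of loci called higher (left) or lower (right) in chromatin at an adjusted p under 0.05 (y axis, percent) in 4 classes of span (x axis, kb) for the members (red) and the other protein-coding loci (grey), with the number of loci above each bar. Members are called higher more often, and lower less often, in each class; in the class of 10 to 20 kb 67.6% of 34 members are higher.

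Among called members whose fractions did not overlap and whose mean was at least 100 normalized counts, the 6 largest changes towards chromatin lay between 2.29 and 3.37 on the log2 scale. Zfp972, with few reads, is described with its cluster. Zfp853 (chr5:143285999-143294805, minus strand) held 262, 181 and 240.4 normalized counts in the chromatin libraries and 24.3, 18.0 and 21.0 in the nucleoplasm libraries. Each chromatin library was well above each nucleoplasm library, and the log2 fold change was 3.37 ± 0.24 (SE, adjusted p = 0.000103). This gene has 5 matches to the finger pattern and no KRAB pattern, and it was the only member without a long-read transcript.

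Zfp969 (chr2:175687129-175704199, minus strand) held 3042, 2899 and 3581 normalized counts in chromatin and 346, 319 and 419 in nucleoplasm. The chromatin mean was 8.79 times the nucleoplasm mean (log2 fold change 3.14 ± 0.14, adjusted p = 2.92e-05). All of the 50-base windows in its annotated transcripts also occur in transcripts of other genes, chiefly Zfp968, so reads of 50 bases could have come from either copy and the value is uncertain as that of a single gene. Zfp968 had no row of its own in the table.

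Zfp950 (chr19:61053840-61140845, minus strand) shares 0.83% of its windows with other genes. It held 7349, 6642 and 5657 normalized counts in chromatin and 970.1, 929 and 833 in nucleoplasm. The fractions lay far apart, with a log2 fold change of 2.84 ± 0.12 (adjusted p = 2.75e-05). Zfp945 (chr17:22844554-22867289, minus strand), with 18 finger matches and a KRAB pattern, held 6257, 5413 and 5669.9 in chromatin and 1180.3, 1061 and 889 in nucleoplasm. Its log2 fold change was 2.48 ± 0.13 (adjusted p = 3.84e-05).

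Zfp608 (chr18:54888045-54992599, minus strand), a long gene whose protein has no match to the finger pattern, held 10018, 7014 and 8142 normalized counts in chromatin and 1964, 1625 and 1532 in nucleoplasm. Chromatin library 1 was the highest, and the lowest chromatin library stood above every nucleoplasm library (log2 fold change 2.29 ± 0.16, adjusted p = 0.000107). Its relative Zfp609, which binds the cohesin loader Nipbl, had means of 4476 ± 695 (SD, n = 3) in chromatin and 3238 ± 466 in nucleoplasm and did not pass the test (log2 fold change 0.46 ± 0.16, adjusted p = 0.056).

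The falls were smaller. Zfp637 (chr6:117841156-117845956, plus strand) held 195, 218 and 147 normalized counts in chromatin and 536, 529 and 495 in nucleoplasm. The nucleoplasm mean was 2.78 times the chromatin mean, and the log2 fold change was -1.49 ± 0.17 (adjusted p = 0.000682). Zfp706 (chr15:36997027-37007402, minus strand), which encodes a protein of 76 residues with 1 finger match, held 2635, 2754 and 1821 in chromatin and 6964, 6427 and 4407 in nucleoplasm (log2 fold change -1.30 ± 0.24, adjusted p = 0.00485). Chromatin library 3 and nucleoplasm library 3 were the lowest of their fractions for this gene.

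Zfp768 (chr7:127342795-127345314, minus strand), the shortest member at 2520 bases, held 435, 528 and 365 normalized counts in chromatin and 848, 999.6 and 1128 in nucleoplasm. The groups did not overlap, and the log2 fold change was -1.17 ± 0.18 (adjusted p = 0.00224). Zfp689 had a log2 fold change of -1.10 ± 0.18 (adjusted p = 0.00299), Zfp691 of -1.01 ± 0.15 (adjusted p = 0.0022) and Zfp664 of -0.70 ± 0.16 (adjusted p = 0.0122), all with separate fractions. Scaled to the ERCC standards, Zfp637 and Zfp706 still passed, Zfp768, Zfp689 and Zfp691 did not pass (log2 fold changes of -0.44, -0.37 and -0.28), and Zfp664 turned to 0.029. The other 4 members called lower had log2 fold changes from -0.64 to -0.29, among them Zfp622, a factor of ribosome assembly, with means of 1010 ± 106 in chromatin and 1583 ± 220.3 in nucleoplasm (SD, n = 3 each).

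**Figure D4:**
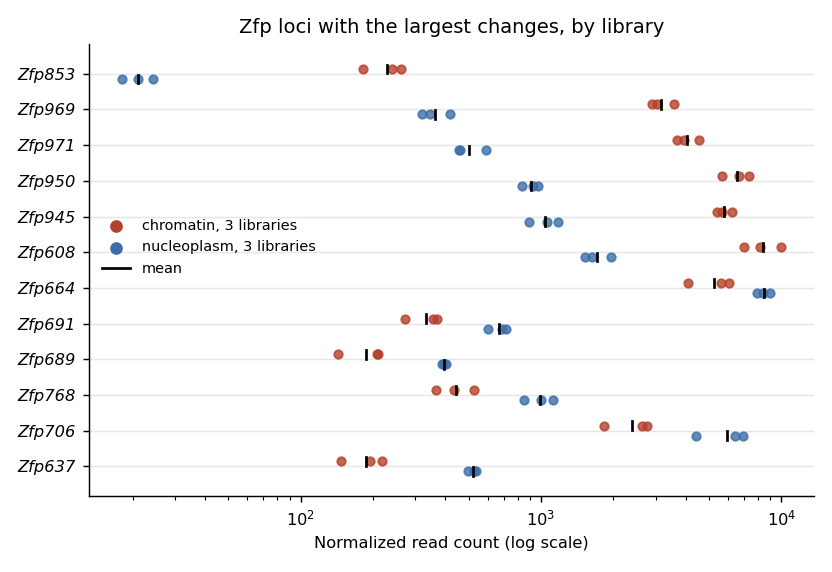
Normalized read counts (x axis, log scale) of the 6 members with the largest and the 6 with the smallest log2 fold changes among those called with separate fractions and a mean of at least 100, with a point for each of 3 chromatin (red) and 3 nucleoplasm (blue) libraries and a black bar for each mean. The 12 members were chosen for fractions that do not overlap, and the upper 6 are higher in chromatin and the lower 6 in nucleoplasm.

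Levels were compared between genes as normalized counts per kb of annotated exon. The members' median was 295 in chromatin and 203 in nucleoplasm, where the other coding loci had medians of 356 and 459. The highest chromatin levels were those of Zfp655 (3054 counts per kb), Zfp871 (2606), Zfp934 (2345), Zfp638 (2034), Zfp971 (1888) and Zfp969 (1805). All 6 were also higher in chromatin than in nucleoplasm, but a ranking by chromatin level favours such members. Zfp655 held 14711, 13525 and 23055 normalized counts in chromatin and 3609, 3192 and 4025 in nucleoplasm, so library 3 stood above its neighbours in both fractions (log2 fold change 2.21 ± 0.22, adjusted p = 0.000392).

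Zfp638, a DNA-binding nuclear protein that brings the HUSH silencing complex to unintegrated retroviral DNA, held 35878, 31891 and 28719 normalized counts in chromatin and 11932, 10850.4 and 11105 in nucleoplasm. Its chromatin counts were the highest of any member, and the log2 fold change was 1.505 ± 0.11 (adjusted p = 0.00012). Zfp871 had means of 28964 ± 2814 in chromatin and 14354 ± 1172 in nucleoplasm (log2 fold change 1.01 ± 0.11, adjusted p = 0.00065). Zfp809, which binds the primer binding site of Moloney murine leukaemia virus, was at 1761 counts per kb in chromatin and 1199.8 in nucleoplasm, and its log2 fold change was 0.55 ± 0.10 (adjusted p = 0.00523). The longest member, Zfp704, spans 189696 bases and had a log2 fold change of 1.18 ± 0.12 (adjusted p = 0.000468).

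At the other end, 5 members had a mean under 100 normalized counts over the 6 libraries, and 0 were without reads in all of them. Zfp750, a regulator of epidermal differentiation, held 6, 9 and 0 reads in chromatin and 9, 10 and 7 in nucleoplasm, which is too few to show a difference. Zfp981 held 4.07 to 4.19 counts in the chromatin libraries and 1.01 to 1.45 in the nucleoplasm libraries, and it passed the test (adjusted p = 0.0354) on these few reads. Zfp746, known as the Parkin substrate PARIS, was measured well and lay at the same level in both fractions, with means of 693 ± 13.5 and 699 ± 37.8 and a log2 fold change of -0.01 ± 0.09 (adjusted p = 0.928).

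A KRAB A box was looked for as a letter pattern in the longest annotated protein of each gene. It was found in 50 members and not in 38, and a protein that lacks the pattern may still hold a diverged box. Of the 50 with the pattern, 35 were higher in chromatin and 3 lower, with a median log2 fold change of 1.05. Of the 38 without it, 19 were higher and 7 lower, with a median of 0.46. Their median spans were 17826 and 15698 bases, but the spread of spans differed: 7 members with the pattern and 12 without it were under 10 kb, and 3 and 9 were of 50 kb or more. The division was not the same in every span class. In the class of 10 to 20 kb, 17 of 23 members with the pattern were higher and 0 lower, and 6 of 11 without it were higher and 2 lower. In the class of 20 to 50 kb, 15 of 17 with the pattern were higher and 0 lower, and 3 of 6 without it were higher and 1 lower. Under 10 kb the order turned, with 1 of 7 higher and 3 lower with the pattern (median -0.29) and 4 of 12 higher and 4 lower without it (median -0.064). At 50 kb or more the shares were equal, with 2 of 3 and 6 of 9 higher and 0 lower in both.

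Among Zfp1 to Zfp599, which the rule did not use, 31 of 49 loci with the pattern were higher in chromatin and 0 lower (median 0.64). Of the 69 loci without it, 24 were higher and 20 lower (median 0.03). These loci were not divided by span. Their spans ran from 8432 to 49022 bases with the pattern (median 19623) and from 2192 to 381839 without it (median 16501). CCAAT was in 30 of 45 matched promoters of members with the pattern (66.7%) and in 10 of 30 without it, and the E box was in 10 of 45 and in 0 of 30. Of these 10 promoters 6 belong to 1 chromosome 17 cluster, that of Zfp760 to Zfp945, and include the near-identical pair printed above, so they are not separate observations. The windows of Zfp944 and Zfp758, which lie on opposite strands, overlap and hold the same E box. The number of finger matches ranged from 0 to 33, with a median of 11 in members with the KRAB pattern and 6 in those without it. Across members the rank correlation of log2 fold change with the number of finger matches was 0.17.

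The members lie on 17 chromosomes, with 23 on chromosome 7 and 14 on chromosome 17. Chained with gaps of at most 1 Mb, 34 of them formed 8 clusters of 3 or more. Of these 34, 22 were higher in chromatin and 4 lower (median log2 fold change 0.76), and of the 54 outside clusters 32 were higher and 6 lower (median 0.93). The medians of the clusters themselves ran from -0.01 to 3.01.

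The chromosome 2 cluster (chr2:177464742-178037350) holds Zfp970, Zfp972 and Zfp971, whose promoters are printed above, and all 3 were called more than 4 fold higher in chromatin in the limma fit. Zfp971 held 3933, 3685 and 4532 normalized counts in chromatin and 461, 458 and 590.0 in nucleoplasm (log2 fold change 3.01 ± 0.14, adjusted p = 3.14e-05). Zfp970 held 1837, 1728 and 2791 in chromatin and 436, 361 and 529 in nucleoplasm (log2 fold change 2.24 ± 0.23, adjusted p = 0.000449). In both genes library 3 was the highest of its fraction. Zfp972 had only 14, 14 and 12 reads in the chromatin libraries and 0 in each nucleoplasm library. A count of 0 was taken to allow up to 3 reads per library, which covers counting error only and treats estimated counts as reads. On that limit Zfp972 was at least 4.70-fold higher in chromatin. Its fitted log2 fold change of 3.88 depends on the pseudocount, being 1.91 with a pseudocount of 5, and with the replicate block edgeR did not call it (adjusted p = 0.0718).

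These 3 genes share 49.5 to 55.7% of their 50-base windows with other genes, and their values are uncertain as those of single genes. Zfp969 lies on the same chromosome but outside the cluster. Elsewhere on chromosome 2, outside the cluster, 6 genes had only rows of annotated transcripts: chromatin and nucleoplasm means were 1087 and 150.1 for Zfp966, 839 and 119.9 for Zfp967, 487 and 76.3 for Zfp965 and 426 and 148.9 for Zfp937, while Zfp663 and Zfp831 were listed at 0 in both.

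The largest cluster, on chromosome 17 (chr17:21707741-22867289), holds 8 members, and the KRAB pattern was found in each. Of these, 7 were higher in chromatin and 0 lower, with log2 fold changes from 0.40 for Zfp947 to 2.48 for Zfp945 and a median of 1.09. Zfp942 and Zfp944, which have near-identical promoters, had log2 fold changes of 1.93 ± 0.13 and 1.65 ± 0.18. Zfp947 was near the threshold (adjusted p = 0.0427) and was not called in 10 of 18 other fits. Chromatin levels in this cluster, as counted, ran from 86.2 counts per kb for Zfp947 to 1293 for Zfp942. Its members share 0.58 to 20.0% of their windows with other genes, with 20.0% for Zfp947 and 5.80% for Zfp942. How reads were divided among such copies was not tested, so the difference in level between these neighbours is uncertain in size.

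The second chromosome 17 cluster (chr17:32765496-33033381) holds Zfp871, Zfp870, Zfp952 and Zfp763. Zfp871 and Zfp870 were higher in chromatin, with log2 fold changes of 1.01 and 0.88, and Zfp952 and Zfp763 did not pass, with 0.08 and 0.07. Zfp763 held 847, 741 and 515 normalized counts in chromatin and 754, 636 and 586 in nucleoplasm, so its fractions overlapped. All 4 carry the KRAB pattern and share at most 1.95% of their windows with other genes.

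On chromosome 7, the cluster of Zfp626, Zfp974 and Zfp850 (chr7:27804212-28014382) was higher in chromatin throughout, with log2 fold changes of 1.67, 1.52 and 1.16. Zfp850 was the least certain of them (standard error 0.34, adjusted p = 0.0326, not called in 6 of 18 other fits), and its chromatin libraries held 1766, 1515 and 3348 normalized counts. The cluster of Zfp771 to Zfp646 (chr7:127244480-127885996) was mixed: Zfp771, Zfp629 and Zfp646 were higher, Zfp768, Zfp689 and Zfp747 were lower, and Zfp668 did not pass. Its 7 members are short, with a median span of 8755 bases, and its log2 fold changes ran from -1.17 to 0.97.

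The cluster of Zfp787, Zfp773 and Zfp772 (chr7:6129636-7209998) was also mixed, with Zfp787 higher at 1.52 ± 0.16, Zfp772 lower at -0.29 ± 0.10 (adjusted p = 0.0466, not called in 8 of 18 other fits) and Zfp773 not called; under ERCC scaling Zfp772 turned to 0.44. On chromosome 9 (chr9:22055411-22307640) Zfp653, Zfp809 and Zfp810 were all higher, from 0.55 for Zfp809 to 1.31 for Zfp810. On chromosome 6 (chr6:47819263-48623227) Zfp786, Zfp746 and Zfp775 were all uncalled, with log2 fold changes from -0.37 for Zfp775 to 0.45 for Zfp786. Levels in this cluster were 14.2 to 86.2 counts per kb in chromatin.

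**Figure D5:**
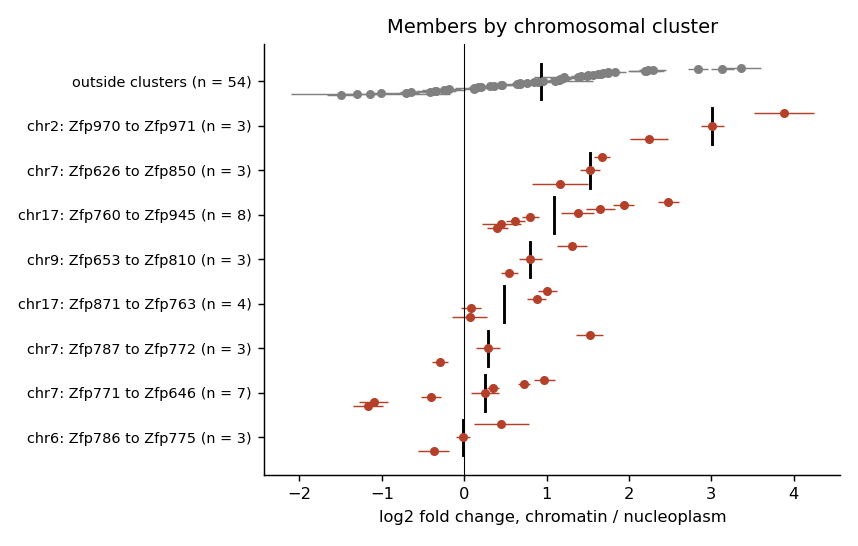
Log2 fold change between chromatin and nucleoplasm (x axis) of each member, by chromosomal cluster (rows, ordered by median) and for the 54 members outside clusters (grey), with bars of 1 standard error and a black line at each median. The chromosome 2 cluster has the highest median (3.01), and the chromosome 6 cluster lies around 0.

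Near copies bear on these values because the short reads were 50 bases long. The median member shared 0.55% of its 50-base transcript windows with other genes, 27 members shared none, and 24 shared at least 5%. Of the 64 members under 5%, 38 were higher in chromatin (59.4%) and 7 lower, with a median of 0.87. Zfp960 shared 82.7% of its windows, chiefly with Zfp97, and Zfp932, a repressor of endogenous retroviruses, shared 37.0%, chiefly with its known paralog Gm15446. How the authors' assembler divided reads among such copies was not tested.

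Of the 171 annotated genes, 83 gave no member. In 12 the best locus overlapped the gene too little, 10 overlapped only loci assigned to other genes, 53 had only rows of annotated transcripts and 8 had no row. Just outside the rule, at Jaccard indices of 0.46 and 0.49, Zfp866 had a log2 fold change of 1.91 ± 0.16 and Zfp830 of -0.47 ± 0.09. Just inside, at 0.50 and 0.55, Zfp652 had -0.19 ± 0.15 and Zfp934 2.23 ± 0.09. All 10 genes with only annotated rows on chromosome 4 had means under 20 in both fractions, the highest being 7.59.

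Of 32 listed genes through which KRAB proteins act, 30 had a coding locus, of which 9 were higher in chromatin, 12 lower and 9 not called, with a median log2 fold change of 0.06. These shares of 30.0% and 40.0% lay near the 25.2% and 43.6% of the coding loci that are not members. Trim28 had no locus that met the rule. Setdb1, the methyltransferase, held means of 6743 ± 207 in chromatin and 4499 ± 126 in nucleoplasm (log2 fold change 0.58 ± 0.07, adjusted p = 0.000867). The largest values were those of Fam208a, the scaffold of the HUSH complex (1.54 ± 0.17), and Morc2a, an ATPase that works with it (1.47 ± 0.12). The smallest were those of the deacetylase Hdac1 (-1.55 ± 0.23) and the histone-binding protein Rbbp7 (-1.46 ± 0.11). Under ERCC scaling 15 cofactors were higher and 3 lower.

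Long reads were taken from chromatin only, so they give levels and no comparison. In TPM, a share of transcripts scaled to the same total in each library, 87 of the 88 members had a transcript on their strand with a value above 0, and 85 had one in both libraries. The members' TPM summed to 1465 in library 1 and 1421 in library 2, and the rank correlation of the members' values between the libraries was 0.86. Of the 266 transcripts with a value, 156 touched an annotated exon of the gene and 110 lay wholly outside its exons, and those outside took 40.2% of the TPM in library 1 and 42.9% in library 2. A large part of this came from a single transcript at Zfp981, with 198 of 588 off-exon TPM in library 1 and 204 of 609 in library 2.

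Zfp981 had the highest long-read value, and it lay outside the exons. An assembled transcript of 2415 bases (chr4:146504258-146506672, plus strand) that touches none of its annotated exons held 198 and 204 TPM, while the short-read count of the locus was near 4. Counting exon-touching transcripts alone, the highest were Zfp605 at 76.9 and 64.9 TPM and Zfp638 at 46.5 and 54.2 TPM. Most of the Zfp605 value was 1 assembled transcript of 1493 bases, at 72.3 and 63.7 TPM. With exon-touching transcripts alone 86 members had long reads, and the rank correlation with the short-read chromatin count across them was 0.62. The long-read library kit did not keep strand, so a transcript's strand rests on the assembly.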

How the data were processed

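The authors aligned the short reads to mm10 with HISAT2 2.1.0, assembled and merged transcripts with StringTie, and deposited gene counts divided by DESeq2 size factors, a normalized signal per row. Whole counts, to within 0.01 of a count, were recovered from 100% of these values. The authors took their raw counts from abundances re-estimated by StringTie, so a recovered count is an estimate, called a read here. The authors call the libraries of a fraction biological replicates. For the long reads, aligned with minimap2, the authors deposited TPM per transcript. Loci were matched to GENCODE M21 and tested with limma 3.58.1, with a mean-variance trend, on log2(count + 1) for rows above 0 in at least 1 of the 6 short-read libraries. P-values were adjusted by Benjamini-Hochberg over all rows. Fingers were counted as C-X2-C-X12-H-X3 to 5-H. Members named in the text are the 6 largest and 6 smallest changes among called members with separate fractions and a mean of at least 100 counts, the 6 highest levels per kb, the highest and lowest of each cluster, and the longest and shortest; others (Zfp605, Zfp609, Zfp622, Zfp746, Zfp750, Zfp932, Zfp981 and neighbours in clusters) were chosen after their values were seen. Members and lists were chosen with earlier results of these data known. The limma and edgeR code was tested on simulated data. Alternatives used edgeR 4.0.16 and DESeq2 1.42.0 on the recovered reads, other scalings, filters and pseudocounts, and fits without each library. The tables' other rows were used in the fit and are not described.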

Additional observations from a re-analysis of the deposited data

How the results depend on the processing

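The lean towards chromatin held its direction in all 18 other fits: the number of members called higher ran from 49 to 71, and the members' median exceeded that of the coding loci of similar span by 1.29 to 1.45 on the log2 scale, beside 1.37 as reported. Among the members called higher as reported, at least 49 of 54 passed in each of these fits. Scaling to the ERCC standards moved the most values: it left 2 members lower, put 29 more than 4 fold higher, raised the members' median to 1.56 and the similar-span median to 0.17, called 86 Zfp1 to Zfp599 loci and 15 cofactors higher, and turned Zfp772 to 0.44, Zfp775 to 0.36 and Zfp664 to 0.029. Quantile normalization left 6 members lower with a median of 0.95 and turned Zfp786 to -0.12. On the recovered reads edgeR called 7735 rows higher and 7657 lower, gave medians of 0.73 for the members and -0.65 for the similar spans, and turned Zfp763 to -0.019. A Jaccard index of 0.8 left 7 members more than 4 fold higher, holding the sets to a similar count moved their median to -0.64, and gaps of 2 Mb added Zfp790 to the Zfp626 cluster, with a median of 1.34. The ERCC standards summed to 213760, 197879 and 183950 normalized counts in the chromatin libraries and 347971, 392824 and 261886 in the nucleoplasm libraries. Dividing by these totals moves all well-counted loci towards chromatin by a similar amount. Why the ERCC totals differ, and the cause of the other shifts, was not tested.

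The authors state that the libraries of both fractions were made from 3 independent cultures. The labels do not say whether equal numbers mark the same culture. The fit as reported, with 54 members higher and 10 lower, used no pairing. The deviations of same-numbered libraries correlated at 0.097, 0.088 and 0.22, each library most with its own number. With the replicate block 58 members were higher and 13 lower in limma, and in edgeR the medians were 0.72 for the members and -0.66 for the similar spans, with Zfp763 at -0.039. Of the named members, Zfp972 was lost in 1 of 17 other fits, that block in edgeR. Leaving out each library in turn gave cluster medians of 1.02 to 1.15 for Zfp760 to Zfp945, 2.93 to 3.13 for Zfp970 to Zfp971, 1.46 to 1.62 for Zfp626 to Zfp850 and -0.048 to 0.030 for Zfp786 to Zfp775, and -0.084 to 0.27 for Zfp763. Zfp947 and Zfp772 were lost in 10 and 8 of 18 fits and in most of those without a library, and Zfp850 in 6, among them those without chromatin library 1 and nucleoplasm libraries 1 or 2. Alternatives chosen after seeing the data, members under 5% shared windows and members with a mean of at least 100, gave 38 of 64 and 52 of 83 higher. Values under about 10 reads limit Zfp750 and Zfp981, and with 3 libraries a fraction the smallest changes called lay near 0.3 on the log2 scale.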

Other observations

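In Zfp941 and Zfp850 library 3 stood apart in both fractions. Zfp941 held 406, 407 and 880.5 normalized counts in chromatin and 186, 179 and 443 in nucleoplasm. Its change, 1.10 ± 0.47 on the log2 scale, did not pass in limma without pairing of the libraries (adjusted p = 0.11). In that fit the height of library 3 counts as spread within each fraction. Each chromatin value of Zfp941 was above the nucleoplasm value of the same number. Zfp850 held 1766, 1515 and 3348 in chromatin and 843, 766 and 1239 in nucleoplasm. Library 3 was thus the highest of both fractions in these genes, and its chromatin value was still above its nucleoplasm value. What sets library 3 apart at these loci was not tested.

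The long-read kit did not keep strand, so signal on both strands of a locus need not mean transcription of both. Other members also had TPM on the opposite strand, such as Zfp949 with 28.0 and 31.2. Zfp605 had long-read transcripts assembled on both strands. Its own strand held 78.6 and 70.0 TPM, and the opposite strand of the same locus held 174 and 172 TPM, while its short-read counts of 667 ± 69.3 in chromatin and 591 ± 46.3 in nucleoplasm (SD, n = 3 each) did not differ past the threshold (adjusted p = 0.297).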
